A study of Homo sapiens with 12 samples.

Results

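The RNA-seq libraries of the bladder cancer line HT1376 were used to compare the response to interferon gamma (IFNγ) between a line edited at FOXP3 and its control. All 12 of the 12 libraries entered the comparison, with 3 libraries in each of 4 groups. HT1376 CT, which the labels call WT, is a clone made with CRISPR and a control guide, and HT1376 FOXP3 KO is a clone made with CRISPR guides to exon 2 of FOXP3. Each line was grown untreated (UTR) or with 100 ng/mL IFNγ for 48 hours. The quantity described is the interaction, the log2 change with IFNγ in HT1376 FOXP3 KO minus the log2 change with IFNγ in HT1376 CT. It addresses which IFNγ responses shrank, stayed or grew in the edited line. Each line was a single-cell clone, so that an effect of the FOXP3 edit and a difference between clones cannot be told apart. The labels do not say that libraries came from separate cultures, and p-values therefore measure only the spread between these samples.

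The libraries held 4490684 to 39270042 counts (median 15551202), which is the depth behind every value given here. Of 60666 genes, 38206 had at least 1 count and 27806, with a total of at least 10 counts, were tested. FOXP3, the targeted gene, was at 3 counts or fewer in every library and at 0 in 8 of them, with 2 counts summed over 6 HT1376 CT libraries and 6 counts over 6 HT1376 FOXP3 KO libraries, so its transcript did not check the labels at this depth. The 8 epithelial and urothelial markers, such as EPCAM, KRT5 and GATA3, summed to 3931 to 5044 CPM (normalized counts scaled to a common library size) in every library. The 17 leukocyte markers summed to 4.90 to 8.94 CPM in HT1376 CT libraries and to 77.0 to 234 CPM in HT1376 FOXP3 KO libraries, mainly through CSF1R, while in each group 6 to 10 of the 17 had no count. The 13 fibroblast and endothelial markers summed to 59.2 to 76.6 CPM in untreated HT1376 CT, 29.8 to 39.0 CPM in HT1376 CT with IFNγ and 452 to 734 CPM in HT1376 FOXP3 KO libraries. The part of these marker differences in the results was not tested.

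IFNγ binds a receptor made of IFNGR1 and IFNGR2, and the kinases JAK1 and JAK2 then pass the signal to transcription factors that bind the gamma-activated site (GAS) in promoters. These switch on early genes, among them the transcription factor IRF1, which together with other interferon regulatory factors acts on the interferon-stimulated response element (ISRE). In epithelial tumour cells this program is known for antigen presentation through MHC class I and class II, the immunoproteasome, guanylate-binding proteins, chemokines that draw T cells, antiviral proteins and the checkpoint ligand PD-L1.

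Both lines responded, with more genes called in HT1376 CT. By the quasi-likelihood test of edgeR with Benjamini-Hochberg adjustment over all genes tested, which gives every adjusted p reported here unless another fit is named, IFNγ raised 791 genes (2.84% of those tested) and lowered 415 (1.49%) in HT1376 CT. In the edited line, HT1376 FOXP3 KO, the treatment raised 268 (0.964%) and lowered 5 (0.0180%). The difference in these counts was not itself tested, and the interaction tests each gene. A gene was called a responder where the mean of both lines' changes passed an adjusted p under 0.05 with an absolute log2 change over 1, a choice that favours neither line. There were 518 responders, of which 472 were higher (1.70%) and 46 lower (0.165%) with IFNγ. In 136 of them, 117 higher and 19 lower, a group lay at the count floor, meaning 3 counts or fewer in each of its libraries, and no fold was taken against that group. The other 382 responders, 355 higher and 27 lower, are described by their interaction.

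Among the 355 genes raised with IFNγ, the median log2 change was 2.40 in HT1376 CT and 1.54 in HT1376 FOXP3 KO. The median interaction was -0.74, and it was negative in 301 of the 355 genes. Over all 19500 genes above the floor the median interaction was 0.01. The log2 changes of both lines had a Pearson correlation of 0.458 over those 19500 genes and of 0.817 over the 382 responders, as a description across genes of the same 12 libraries. Choosing responders by the mean of both changes raises their correlation, so these values cannot be compared with each other. Most raised genes thus had a smaller log2 change in HT1376 FOXP3 KO, whether or not the difference was called. In CPM the increment with IFNγ was smaller in HT1376 FOXP3 KO for 322 of the 355 genes. Log2 changes and CPM increments did not always order the lines alike. In 49 genes the log2 change was not smaller in HT1376 FOXP3 KO while the CPM increment was, and in 28 genes the reverse held.

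**Figure D1:**
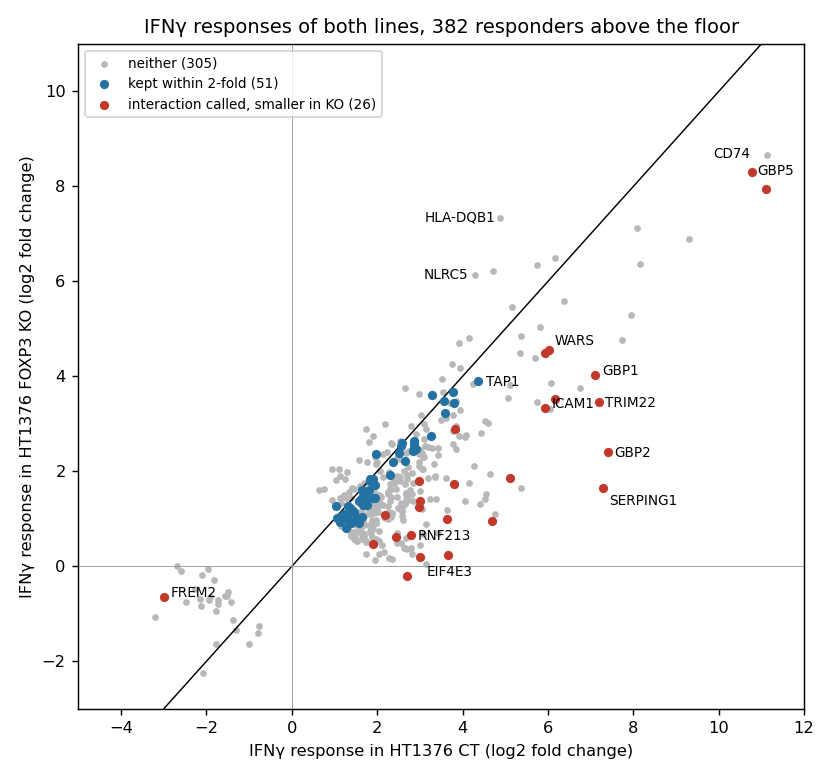
The log2 change with IFNγ in HT1376 CT (horizontal axis) is plotted against that in HT1376 FOXP3 KO (vertical axis) for the 382 responders above the count floor, coloured by whether the response was smaller in HT1376 FOXP3 KO (26 genes), kept within 2-fold (51 genes) or neither (305 genes), with the line of equal change. The 25 raised genes with a smaller response lie below that line, and FREM2, which was lowered, lies above it.

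The interaction itself passed the threshold in 31 genes, 1 with a positive value (0.00360% of genes tested) and 30 with a negative value (0.108%). At an unadjusted p under 0.05 there were 1727 genes, 851 positive and 876 negative, and DESeq2 called 50 positive and 110 negative. Of the responders above the floor, 26 had a smaller response in HT1376 FOXP3 KO (25 raised genes and 1 lowered gene), 0 had a larger response, 51 kept their response within 2-fold (0.183% of genes tested), and 305 could be placed in neither class. A response was called kept where the 95% interval of the interaction lay inside -1 to 1 on the log2 scale. The 3 classes differed in level and precision. Among raised genes, the median of the mean CPM was 87.2 for smaller responses, 100.2 for kept ones and 8.27 for the 279 unplaced ones, and the median standard error of the interaction was 0.28, 0.21 and 0.56.

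The libraries carry the numbers 11, 12 and 13 in every group, and libraries of a line with the same number deviated together. With a block by number, the interaction was positive in 146 genes (0.525%) and negative in 190 (0.683%). Under this block 114 responders were smaller (100 raised and 14 lowered), 3 were larger and 86 were kept, out of 679 responders. With a block by number within each line and bias-adjusted deviance, 458 genes were positive (1.65%) and 409 negative (1.47%), with 152 smaller, 6 larger and 95 kept responders of 770. All 31 genes called without a block were called with the same sign under both of these blocks and by DESeq2. The blocks thus added calls and removed none of the 31, and the number block's value is given beside each named gene or list whose interaction calls it changed. Of the 142 positive calls above the floor with the number block, 131 were genes with a decrease in HT1376 CT that was larger in size than the change in HT1376 FOXP3 KO. Of the 185 negative ones, 181 were genes with an increase in HT1376 CT that was larger in size.

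Promoter sequence is shown for genes whose induction was smaller in HT1376 FOXP3 KO and for genes whose induction was kept, so that the elements of the pathway can be seen beside the values. RefSeq promoters of 300 bases, from 250 before to 50 after the start of the gene, were searched on both strands for the ISRE core GAAANNGAAA and the GAS core TTCNNNGAA, which can overlap by the letters GAA and were counted separately. The windows are 30 bases long, from build GRCh38.p14, written 5′ to 3′ on the strand of the gene, with the match in capitals. A match may stand as the reverse complement. For smaller responses they are GBP1 (chr1:89065316-89065345, minus strand), LAP3 (chr4:17577005-17577034, plus strand) and AIM2 (chr1:159076937-159076966, minus strand) with an ISRE, and IRF1 (chr5:132490878-132490907, minus strand) and ICAM1 (chr19:10271035-10271064, plus strand) with a GAS. For kept responses they are TAP1 (chr6:32853813-32853842, minus strand), B2M (chr15:44711369-44711398, plus strand) and IFIT3 (chr10:89327865-89327894, plus strand), each with an ISRE.
GBP1: aacgaagtacTTTCAGTTTCatattactct
LAP3: tggcactcagTTTCTATTTCccgggagttg
AIM2: tctaggccacTTTCTGTTTCcaatcagtgt
IRF1: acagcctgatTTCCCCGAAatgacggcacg
ICAM1: ggcgcgaggtTTCCGGGAAagcagcaccgc
TAP1: ccgctttcgaTTTCGCTTTCccctaaatgg
B2M: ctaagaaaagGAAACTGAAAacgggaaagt
IFIT3: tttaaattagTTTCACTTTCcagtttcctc

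An ISRE core stood in 3.65% of all 27305 promoters, in 2.97% of those of tested genes, in 31.0% of those of raised responders (66 of 213 with a promoter in the table), in 22.2% of those of smaller responses (4 of 18) and in 58.5% of those of kept responses (24 of 41). A GAS core stood in 7.88%, 6.78%, 14.1% (30 of 213), 27.8% (5 of 18) and 9.76% (4 of 41) in the same order. These shares describe the letters in the window. They do not say which factor was bound in either line.

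The 25 raised genes with a smaller response fell into 2 patterns of level. In 14 the untreated level was higher in HT1376 FOXP3 KO, and in 11 it was not called different (8 genes) or was lower (3 genes). In all of the latter 11 the level under IFNγ was lower in HT1376 FOXP3 KO. This follows largely from the choice, since a negative interaction on an untreated level that is not higher lowers the treated level. In the former 14 the level under IFNγ was higher in HT1376 FOXP3 KO for 4 (GBP2, FRMD3, EIF4E3 and PLSCR4), not called different for 5 (SERPING1, GBP1, TRIM22, IFITM1 and SOD2) and lower for 5 (VASH2, SP110, SLFN5, APOL1 and GBP5). As background for these counts, the lines differed in untreated level in 3387 genes with higher (12.2%) and 4477 with lower values (16.1%) in HT1376 FOXP3 KO, and under IFNγ in 3394 (12.2%) and 4511 (16.2%). All 25 responses were called in HT1376 CT, which again follows largely from choosing raised genes with a negative interaction. In HT1376 FOXP3 KO 19 of the 25 were also called. The 6 without a call there were EIF4E3, FRMD3, PLSCR4, VASH2, IFITM1 and SOD2.

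GBP2 is a guanylate-binding protein, an interferon-induced GTPase that acts on membranes of intracellular microbes. Its level was 0.759, 1.19 and 1.10 CPM in untreated HT1376 CT and 169, 203 and 149 CPM with IFNγ, in the order of the numbers 11, 12 and 13. In HT1376 FOXP3 KO it was 96.3, 77.2 and 77.6 CPM untreated and 520.2, 406 and 408 CPM with IFNγ. The 4 groups did not overlap, and the edited line was higher both untreated and with IFNγ. The log2 change was 7.40 in HT1376 CT and 2.41 in HT1376 FOXP3 KO, both past the test, with an interaction of -4.99 (SE 0.25, adjusted p = 4.51e-08). The CPM increment was larger in HT1376 FOXP3 KO, at 361 against 172. GBP2 is thus a gene with a smaller fold and a larger gain.

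SERPING1 encodes the C1 inhibitor, a brake on the classical complement pathway. It stood at 0.350, 0.397 and 0.605 CPM in untreated HT1376 CT and at 78.3, 76.6 and 74.3 CPM with IFNγ. The edited line held 18.1, 28.7 and 27.4 CPM untreated and 69.0, 83.9 and 79.1 CPM with IFNγ. The lines were apart without IFNγ and overlapped with it. The interaction was -5.64 (SE 0.29, adjusted p = 4.51e-08), the most negative among genes above the floor. GBP1, another guanylate-binding protein, followed the same course. It was at 4.50, 5.80 and 7.31 CPM in untreated HT1376 CT and at 878, 747 and 844 CPM with IFNγ, and at 51.8, 45.5 and 39.2 CPM and then 744, 788 and 699.7 CPM in HT1376 FOXP3 KO. The edited line was above the control untreated, and the libraries overlapped under IFNγ. The interaction was -3.08 (SE 0.21, adjusted p = 2.29e-06).

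TRIM22, an antiviral TRIM protein, had 0.817, 2.23 and 0.473 CPM in untreated HT1376 CT and 137, 193 and 106 CPM with IFNγ, against 17.1, 12.2 and 6.97 CPM and 140.5, 155 and 107 CPM in HT1376 FOXP3 KO. The untreated lines did not overlap and the treated ones did. Its interaction was -3.74 (SE 0.55, adjusted p = 0.0114). This call was lost without either untreated HT1376 CT library number 11 or 13, with an adjusted p of up to 0.0726. EIF4E3, a relative of the cap-binding translation factor, had a higher level in every HT1376 FOXP3 KO library (45.0 to 61.1 CPM) than in any HT1376 CT library (0.701 to 8.34 CPM). It rose by 3.01 in HT1376 CT, its change in HT1376 FOXP3 KO was 0.20 and not called, and the interaction was -2.81 (SE 0.25, adjusted p = 4.43e-05). The CPM increments were 6.30 and 7.37. FRMD3 (interaction -3.73, adjusted p = 0.000552) and PLSCR4 (interaction -3.41, adjusted p = 0.00397, lost at 0.0587 without untreated HT1376 CT library number 13) likewise had similar CPM increments in both lines, of 19.8 against 20.2 and of 3.06 against 3.46 for HT1376 CT and HT1376 FOXP3 KO.

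**Figure D2:**
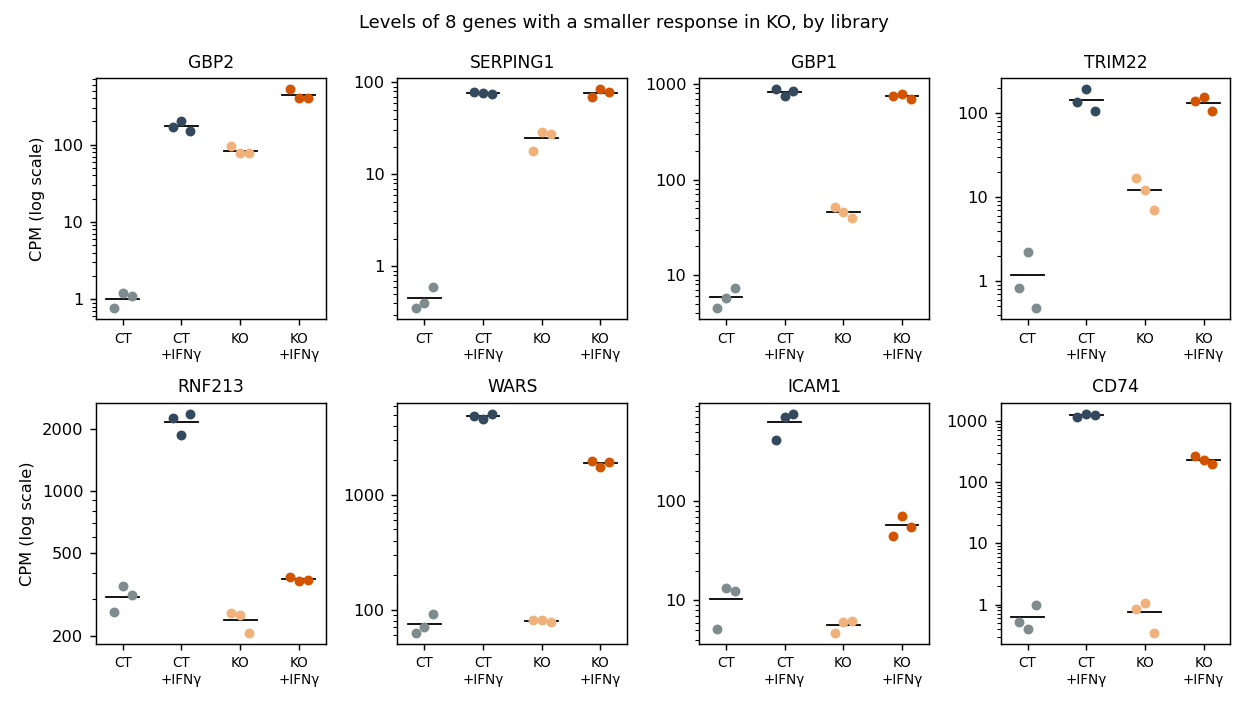
Normalized CPM on a log axis in each of the 12 libraries for 8 raised genes with a smaller log2 response in HT1376 FOXP3 KO, with 1 point a library and a bar at the mean of each group. In GBP2, SERPING1, GBP1 and TRIM22 (top row) the untreated HT1376 FOXP3 KO libraries lie above the untreated HT1376 CT libraries, and in RNF213, WARS, ICAM1 and CD74 (bottom row) the treated HT1376 FOXP3 KO libraries lie below the treated HT1376 CT libraries.

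In the other pattern the untreated level was not called different or was lower in the edited line. With the negative interaction by which these genes were chosen, the edited line reached a lower level. RNF213, a large ubiquitin ligase with antimicrobial activity, was at 261, 349 and 316 CPM in untreated HT1376 CT and at 2237, 1855 and 2357 CPM with IFNγ. In HT1376 FOXP3 KO it was at 257, 253 and 207 CPM and then at 384, 367 and 374 CPM. The treated groups were far apart and the untreated ones close, with the edited line 0.37 lower on the log2 scale (adjusted p = 0.0387). RNF213 rose by 2.80 in HT1376 CT and by 0.65 in HT1376 FOXP3 KO, with an interaction of -2.15 (SE 0.18, adjusted p = 2.36e-05). LAP3, a leucine aminopeptidase that trims peptides, went from 35.1, 36.5 and 35.7 CPM to 263, 318 and 263 CPM in HT1376 CT and from 31.0, 25.1 and 35.4 CPM to 68.0, 77.9 and 73.0 CPM in HT1376 FOXP3 KO. The untreated libraries overlapped and the treated ones did not. Its interaction was -1.72 (SE 0.18, adjusted p = 0.000459).

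WARS, the cytosolic tryptophanyl-tRNA synthetase, stood at 62.8, 71.1 and 90.7 CPM in untreated HT1376 CT and at 4851, 4586 and 5098 CPM with IFNγ. HT1376 FOXP3 KO held 81.2, 81.3 and 78.3 CPM and then 1958, 1737 and 1953 CPM. The untreated groups overlapped and every treated HT1376 CT library was above every treated HT1376 FOXP3 KO library. WARS rose by 6.01 and 4.55, so that a strong response remained in the edited line, and the interaction was -1.46 (SE 0.17, adjusted p = 0.000804). RNF213, LAP3 and WARS passed in every alternative fit and without each of the 12 libraries in turn.

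IRF1, the transcription factor that carries the early signal to later genes, was at 56.8, 67.7 and 63.4 CPM in untreated HT1376 CT and at 873, 855 and 909.7 CPM with IFNγ. In HT1376 FOXP3 KO it was at 55.4, 45.5 and 52.7 CPM and at 375, 371 and 387 CPM. The treated groups did not overlap and were tight, and the untreated edited line lay below the control with no call (adjusted p = 0.0506). IRF1 rose by 3.81 and 2.88, and the interaction was -0.93 (SE 0.15, adjusted p = 0.0171). With the number block the adjusted p was 5.20e-05. Without the block, the call held without untreated number 12 of either line and without treated HT1376 CT number 11 or 12, and was lost without each of the other 8 libraries, with an adjusted p of up to 0.101.

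ICAM1 is the adhesion molecule that leukocyte integrins bind. It was at 5.14, 13.4 and 12.3 CPM in untreated HT1376 CT and at 415, 710.3 and 758 CPM with IFNγ, and in HT1376 FOXP3 KO at 4.73, 6.09 and 6.17 CPM and at 44.8, 71.4 and 55.0 CPM. The untreated libraries overlapped, and the lowest treated control library was above the highest treated edited library. The interaction was -2.59 (SE 0.42, adjusted p = 0.0199). CD74, the invariant chain that escorts MHC class II, was near 1 CPM or lower in all untreated libraries, reached 1179.7, 1315 and 1265 CPM in HT1376 CT and reached 264, 233 and 199.8 CPM in HT1376 FOXP3 KO. Its interaction was -2.48 (SE 0.41, adjusted p = 0.0217). CTSS, the protease cathepsin S that removes the invariant chain, had an interaction of -2.63 (SE 0.44, adjusted p = 0.0281), from group means of 3.56 and 266 CPM in HT1376 CT and of 2.25 and 25.3 CPM in HT1376 FOXP3 KO. All 3 were called under both blocks and by DESeq2, and all 3 lost the call with filterByExpr, a stricter filter on low counts (adjusted p = 0.0603 for ICAM1, 0.0661 for CD74 and 0.081 for CTSS), and with voom of limma (0.114, 0.195 and 0.135). CD74 and CTSS also lost it with the bias-adjusted deviance (0.0502 and 0.0684). In the fit without a block the ICAM1 call held in 4 of the 12 fits that left out a library, that of CD74 in 2 and that of CTSS in 4, and the highest adjusted p was 0.105, 0.350 and 0.129.

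**Figure D3:**
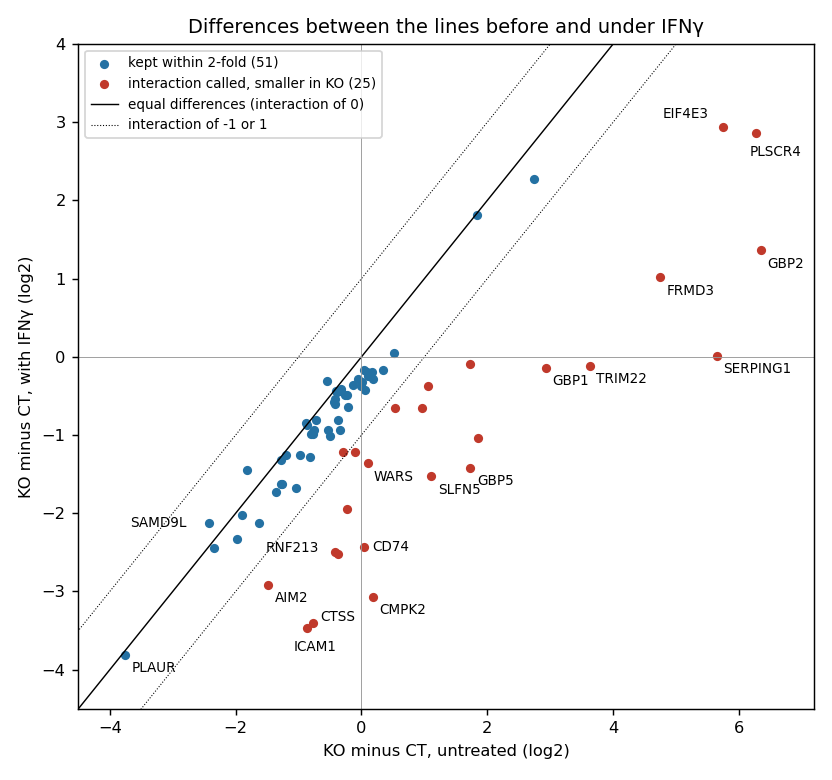
The log2 difference of HT1376 FOXP3 KO minus HT1376 CT without IFNγ (horizontal axis) is plotted against that with IFNγ (vertical axis) for the 25 raised genes with a smaller response and the 51 kept genes, where the solid line marks equal differences, an interaction of 0, and the dotted lines an interaction of -1 or 1. GBP2 and EIF4E3 lie at positive values on both axes (6.35 and 1.36, 5.74 and 2.93), SERPING1 lies at 5.66 and 0.02, RNF213 lies at -0.37 and -2.52, and the kept gene PLAUR lies near the solid line at -3.76 and -3.81.

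AIM2 (interaction -1.43, adjusted p = 0.0364) and IFI16 (interaction -1.11, adjusted p = 0.0403), which sense DNA in the cytosol and nucleus, and CMPK2, a mitochondrial nucleotide kinase (interaction -3.25, adjusted p = 0.0403), complete the named genes of this pattern together with the antisense transcript MMP25-AS1 (interaction -2.07, adjusted p = 0.0122). The strand setting of the counting is not given in the sources used here, so reads of MMP25-AS1 and of its sense partner cannot be told apart. Among genes that started higher in the edited line, SP110 (interaction -1.61, adjusted p = 0.00107) and SLFN5 (interaction -2.64, adjusted p = 0.00124), both interferon-induced nuclear or antiviral proteins, passed without each library in turn. GBP5 (interaction -3.15, adjusted p = 0.0148), APOL1 (-1.19, 0.0171), the antiviral membrane protein IFITM1 (-1.81, 0.0153), VASH2 (-2.89, 0.0153) and the mitochondrial superoxide dismutase SOD2 (-1.42, 0.0403) lost their call without 1 or more libraries. For GBP5 these were treated HT1376 CT number 13 and untreated HT1376 FOXP3 KO numbers 11 and 13 (adjusted p of up to 0.0825), and for IFITM1 untreated HT1376 CT numbers 11 and 13 and treated HT1376 FOXP3 KO number 11 (up to 0.0615). VASH2 kept its call in 6 of the 12 fits that left out a library (adjusted p of up to 0.0828) and MMP25-AS1 in 5 (up to 0.0854). The calls of AIM2, IFI16, CMPK2, APOL1 and SOD2 held in 3 or fewer of the 12 fits, with adjusted p of up to 0.350, 0.138, 0.315, 0.110 and 0.198. With filterByExpr the calls of AIM2, IFI16, CMPK2 and SOD2 were lost as well (0.0554, 0.067, 0.0865 and 0.0926), with voom those of GBP5 (0.204) and AIM2 (0.128), with the bias-adjusted deviance those of AIM2 (0.08), CMPK2 (0.0707) and SOD2 (0.0546), and with RLE size factors that of SOD2 (0.059).

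SP140, a nuclear reader protein related to SP110, had the fifth most negative interaction under the block within line and bias-adjusted deviance, among called genes above the floor with a gene symbol that is not a clone name. It was at 0, 0.556 and 0.342 CPM in untreated HT1376 CT and at 11.3, 14.8 and 10.5 CPM with IFNγ, and at 0.473, 0.717 and 0.749 CPM and 2.41, 1.60 and 1.91 CPM in HT1376 FOXP3 KO. The untreated libraries overlapped and the treated ones did not. Its interaction was -3.71 (SE 0.73, adjusted p = 0.0902, with the number block 0.00207).

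The 51 kept genes were all raised. Their interactions ran from -0.65 to 0.38 with a median of -0.23, and 49 of them rose past the test in both lines. Kept refers to the log2 change, and not to the level. In 27 the untreated level was lower in HT1376 FOXP3 KO and in 4 higher, under IFNγ 35 were lower and 2 higher, and the CPM increment was smaller in HT1376 FOXP3 KO for 49 of the 51. Kept also does not mean equal. With the number block 3 of the 51 were called smaller, and with the block within line and bias-adjusted deviance 16 were called smaller and 0 larger.

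IFIT3, an antiviral effector, ranged from 30.8 CPM in number 11 to 50 CPM in number 12, with 38.7 CPM in number 13, in untreated HT1376 CT, and was at 512, 612 and 534 CPM with IFNγ, and at 15.2, 19.9 and 11.6 CPM and 158, 189 and 154 CPM in HT1376 FOXP3 KO. The edited line was lower in both states without overlap. IFIT3 rose by 3.80 and 3.43, and the interaction was -0.37 with a 95% interval from -0.92 to 0.19. TAP1, a subunit of the peptide transporter of MHC class I, went from 32.0, 46.7 and 49.8 CPM to 867, 834 and 935 CPM in HT1376 CT and from 25.6, 21.5 and 25.9 CPM to 346, 329 and 413 CPM in HT1376 FOXP3 KO. The edited line was lower in both states with no overlap, while the log2 changes of 4.36 and 3.89 differed by -0.46 (95% interval -0.91 to -0.01). B2M, the light chain of MHC class I, changed by 2.85 and 2.57 with an interaction of -0.28 (95% interval -0.71 to 0.15). Both TAP1 and B2M were called smaller with the block within line and bias-adjusted deviance (adjusted p = 0.03915 and 0.02985).

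SAMD9L, an antiviral translation inhibitor, shows a kept response at a lower level. Its libraries were at 77.8, 120.5 and 78.7 CPM untreated and 961, 933 and 812 CPM with IFNγ in HT1376 CT, and at 17.9, 17.1 and 16.3 CPM and 229, 199.8 and 193 CPM in HT1376 FOXP3 KO. No library of the edited line reached the control library of the same treatment. The log2 changes were 3.29 and 3.60, the interaction was 0.31 (95% interval -0.15 to 0.77), and the CPM increments were 809.9 and 190.3. The immunoproteasome subunits PSMB8 (0.03), PSMB9 (-0.09) and PSMB10 (-0.23), the nonclassical class I molecule HLA-E (-0.41), APOL6 (-0.43) and PARP14 (-0.44) were also kept, with the interaction in brackets. Of these, HLA-E, APOL6 and PARP14 were called smaller with the block within line and bias-adjusted deviance (adjusted p = 0.000897, 0.0232 and 0.00066). SECTM1, a secreted and membrane protein, was kept with a wide interval (-0.11, 95% interval -0.99 to 0.77). PLAUR, the urokinase receptor, was among the 5 kept genes with the lowest mean response, at 71.3, 76.8 and 125 CPM and 138, 197 and 237 CPM in HT1376 CT and at 5.16, 5.64 and 9.39 CPM and 10.5, 12.5 and 17.2 CPM in HT1376 FOXP3 KO. Its mean response passed the test, with a change of 1.01 that was not called in HT1376 FOXP3 KO alone (adjusted p = 0.206) and an interaction of -0.06 (95% interval -0.87 to 0.75). The others of these 5 were the antiviral genes IFIT2 (-0.12) and TRIM14 (-0.09), C19orf66 (-0.21), and the clone-named gene AC245297.3 (-0.47), which rose past the test in both lines.

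By edgeR without a block and with the filter on a total of 10 counts, no responder had a larger response in the edited line. DESeq2 without a block called 2, NLRC5 and HLA-DQB1, voom called 1, and edgeR on all genes with at least 1 count called 5. With the number block there were 3, and they were low in untreated HT1376 FOXP3 KO. NLRC5, the transactivator of MHC class I genes, was at 5.72, 14.2 and 6.89 CPM and 181, 149 and 179 CPM in HT1376 CT, and at 1.55, 1.07 and 1.27 CPM and 93.5, 92.8 and 94.9 CPM in HT1376 FOXP3 KO. All HT1376 FOXP3 KO libraries lay below the control libraries of the same treatment. NLRC5 rose by 4.28 and 6.14, and the interaction was 1.86 (SE 0.37, adjusted p = 0.099, with the number block 1.78 and 0.00151, by DESeq2 without a block 1.87 and 0.00133). The increment in CPM was smaller in the edited line, at 92.5 against 161.

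HLA-DQB1, an MHC class II chain, was at 2.86, 5.56 and 8.12 CPM and 153, 169.7 and 175 CPM in HT1376 CT, and at 0.129, 0.627 and 0.115 CPM and 43.0, 42.9 and 28.9 CPM in HT1376 FOXP3 KO. The lines did not overlap in either state. The interaction was 2.46 (SE 0.62, adjusted p = 0.272, with the number block 2.48 and 0.014). EPSTI1, an interferon-induced protein, was at 26.5, 39.3 and 24.4 CPM and 191, 207 and 171 CPM in HT1376 CT, and at 4.73, 6.99 and 5.13 CPM and 68.0, 97.0 and 59.9 CPM in HT1376 FOXP3 KO. The edited line was again lower in both states. The interaction was 1.10 (SE 0.30, adjusted p = 0.344, with the number block 1.04 and 0.000388). With the block within line and bias-adjusted deviance the ubiquitin ligase HERC6 (0.83, adjusted p = 0.0205) and the helicase HELZ2 (0.74, adjusted p = 0.0312) were added, as was HMCN1, which has a group at the floor. EPSTI1, HERC6, HELZ2 and HMCN1 were chosen after their values were seen.

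Beside HLA-DQB1, the 4 largest positive interactions called under that block, above the floor and without clone names, did not pass in the fit without a block. Their genes were not among the responders with a larger response in either fit. TEK, the angiopoietin receptor, was at 7.47, 7.39 and 4.92 CPM in untreated HT1376 CT and 0.679, 0.923 and 0.503 CPM with IFNγ, and at 0.172, 4.93 and 0.807 CPM and 0, 4.06 and 0.454 CPM in HT1376 FOXP3 KO, where library number 12 stood apart. Its interaction was 2.86 (SE 1.56, adjusted p = 0.857), and 2.82 (adjusted p = 0.00415) under the block within line with bias-adjusted deviance. CTAGE1 (2.69, adjusted p = 0.317) had means of 1.64 and 0.195 CPM in HT1376 CT and 2.11 and 2.12 CPM in HT1376 FOXP3 KO. ADTRP (2.54, adjusted p = 0.491, with the number block 0.0399) had means of 3.59 and 1.99 CPM and of 0.337 and 1.12 CPM. The mean of ADTRP thus fell in HT1376 CT and rose in HT1376 FOXP3 KO. PPP1R3C, a subunit that targets a phosphatase to glycogen, had an interaction of 2.95 (SE 1.82, adjusted p = 0.894) and was highest in number 12 of each group, at 27.9 CPM against 2.10 and 5.15 CPM in untreated HT1376 CT.

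**Figure D4:**
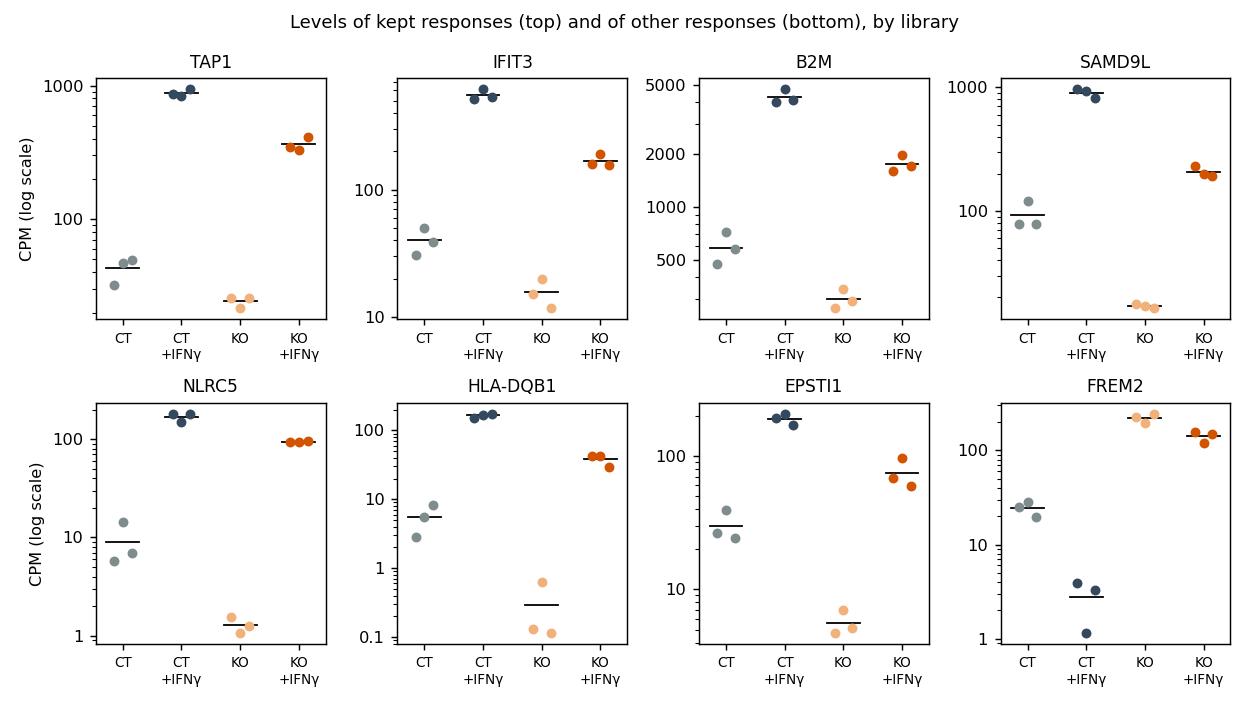
Normalized CPM on a log axis in each of the 12 libraries for the kept genes TAP1, IFIT3, B2M and SAMD9L (top row) and for NLRC5, HLA-DQB1, EPSTI1 and FREM2 (bottom row), with 1 point a library and a bar at the mean of each group. SAMD9L and NLRC5 are lower in HT1376 FOXP3 KO than in HT1376 CT in both states, at 16.3 to 17.9 against 77.8 to 120.5 CPM and at 1.07 to 1.55 against 5.72 to 14.2 CPM untreated.

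Called decreases with IFNγ were fewer in HT1376 FOXP3 KO. Among the 27 lowered responders above the floor, the median log2 change was -1.83 in HT1376 CT and -0.71 in HT1376 FOXP3 KO, the interaction was positive in 22, and 20 were called lower in HT1376 CT while 0 were called lower in HT1376 FOXP3 KO. The single called interaction was FREM2, a protein of the epithelial basement membrane. It was at 25.3, 28.3 and 19.7 CPM in untreated HT1376 CT and at 3.88, 1.15 and 3.30 CPM with IFNγ, and at 226, 195 and 245 CPM and then 155, 119 and 149.8 CPM in HT1376 FOXP3 KO. The treated libraries lay below the untreated ones in both lines, and the edited line was higher throughout. FREM2 fell by 2.98 in HT1376 CT, its change of -0.65 in HT1376 FOXP3 KO was not called (adjusted p = 0.256), and the interaction was 2.33 (SE 0.31, adjusted p = 0.00313). In CPM the mean difference was -21.7 in HT1376 CT and -80.7 in HT1376 FOXP3 KO, so that the order of the lines depends on the scale.

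For the 136 responders with a group at the floor, a fold is given only as a bound against 3 counts. IDO1, which starts the breakdown of tryptophan to kynurenine, reached 86.3, 84.3 and 135 CPM with IFNγ in HT1376 CT and 12.5, 13.6 and 17.2 CPM in HT1376 FOXP3 KO, where it was at least 75.9-fold higher than the floor. Its untreated means were 0.167 and 0.0143 CPM. CXCL9, a ligand of the chemokine receptor CXCR3, reached 5.34, 20.8 and 17.5 CPM in HT1376 CT, at least 88.5-fold higher, and 1.21, 5.03 and 1.65 CPM in HT1376 FOXP3 KO, at least 13.8-fold higher. Among MHC class II chains, HLA-DQA1 was at least 384-fold higher in HT1376 CT and at least 68.9-fold higher in HT1376 FOXP3 KO, and HLA-DMB was at least 199-fold and at least 43.7-fold higher. All 4 were lower under IFNγ in the edited line by the test of the treated groups, and the interaction on the log2 scale is not measured for them.

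As background for the counts in this list and those that follow, 2.84% of all genes tested rose in HT1376 CT and 0.964% in HT1376 FOXP3 KO. Kept genes were 0.183%. Interactions were negative in 0.108% and positive in 0.00360% without a block, and in 0.683% and 0.525% with the number block. The receptor and its signalling proteins showed no called interaction without a block. Of the 8 genes for the receptor, JAK and STAT proteins, 5 rose in HT1376 CT and 4 in HT1376 FOXP3 KO, with a median interaction of -0.25. IFNGR1 (0.09), IFNGR2 (-0.10) and JAK1 (-0.02) had interactions close to 0. STAT2, a transcription factor of type I interferon signalling, rose by 2.40 and 1.74 with an interaction of -0.66 (adjusted p = 0.245, with the number block 0.00779), and JAK2 by 1.34 and 0.66 with an interaction of -0.68 (adjusted p = 0.394, with the number block 0.082). Of 9 feedback regulators, 4 rose in HT1376 CT and 2 in HT1376 FOXP3 KO, and SOCS1, an inhibitor of JAK kinases, rose in both lines with an interaction of 0.20 (95% interval -0.65 to 1.05). Of the 8 interferon regulatory factors tested, 6 rose in HT1376 CT and 4 in HT1376 FOXP3 KO, and IRF1 was the called interaction.

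The genes of antigen presentation are given by arm. All 14 genes of MHC class II and CIITA rose in HT1376 CT and 12 in HT1376 FOXP3 KO. The median interaction was -2.20 over the 7 above the floor, CD74 was called negative without a block, and 4 were negative and 1 positive with the number block. CIITA, the master activator of class II genes, was at 0.237 to 0.874 CPM in untreated HT1376 CT, 294 to 326 CPM with IFNγ, 0.115 to 1.61 CPM in untreated HT1376 FOXP3 KO and 50.6 to 104 CPM with IFNγ. The untreated lines overlapped and the treated ones did not, and the interaction was -2.43 (SE 0.75, adjusted p = 0.514, with the number block 0.0178). HLA-DRA, the alpha chain of HLA-DR, reached 345 to 374 CPM in HT1376 CT and 72.6 to 119 CPM in HT1376 FOXP3 KO, with an interaction of -2.46 (adjusted p = 0.672, with the number block 0.18). The interaction of HLA-DRA was called in 3 of 9 alternative fits. These were DESeq2 without a block (-2.49, adjusted p = 0.0341), edgeR with the block within line (0.00561) and edgeR with a total of at least 1 count (0.0155). HLA-DMA, the chain of the peptide editor, had an interaction of -2.20 (adjusted p = 0.202, with the number block 0.00774).

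In MHC class I and NLRC5, 7 of 8 genes rose in each line, and 0 interactions were called, with 2 negative and 1 positive under the number block and a median of -0.26 that turned positive, at 0.24, in 1 alternative. HLA-C rose by 3.07 and 2.05 with an interaction of -1.01 (adjusted p = 0.186, with the number block 6.39e-05) and HLA-B by 3.93 and 4.17 with an interaction of 0.24 (adjusted p = 0.987, with the number block 0.896). These close paralogs share sequence, and the treatment of reads that fit several genes is not given in the sources used here, so the split between HLA genes is uncertain, as it is for GBP, APOL and IFITM genes. Of the 13 genes of the immunoproteasome and peptide loading, all rose in HT1376 CT and 11 in HT1376 FOXP3 KO, 9 were kept, and 0 were called without a block and 4 negative with it. Their median interaction was -0.36.

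The guanylate-binding proteins had the most negative median interaction among the lists, at -2.87 over 6 genes above the floor, in the fit without a block. All 7 rose in HT1376 CT and 6 in HT1376 FOXP3 KO, and 3 were called without a block and 4 with the number block. Of the 6 CXCR3 ligands and CCL chemokines tested, 4 rose in HT1376 CT and 3 in HT1376 FOXP3 KO. CXCL10 reached 25.0, 108 and 90.4 CPM in HT1376 CT with IFNγ and 15.7, 26.6 and 13.2 CPM in HT1376 FOXP3 KO. The groups overlapped, since control library number 11 was low, and the interaction was -2.98 (SE 0.92, adjusted p = 0.516, with the number block 0.0194). CXCL11 reached 9.99, 31.4 and 27.6 CPM and 2.41, 5.56 and 4.41 CPM, without overlap, with an interaction of -2.63 (SE 0.87, adjusted p = 0.608, with the number block 0.00947).

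Of 28 antiviral genes, 27 rose in HT1376 CT and 24 in HT1376 FOXP3 KO, 6 were kept, and the median interaction was -0.54. Over all genes tested 2.84% and 0.964% rose, 0.183% were kept, and 0.683% were negative with the number block. IFITM1 was the called interaction without a block, and 7 were negative with the number block, among them MX2 (-2.71, adjusted p = 0.189, with the number block 0.000819) and RSAD2 (-1.58, adjusted p = 0.715, with the number block 0.00113). All 5 APOL genes tested rose in both lines, APOL1 was called and 4 were negative with the number block. Of 12 death receptors, caspases and gasdermin D, 10 rose in HT1376 CT and 6 in HT1376 FOXP3 KO, with 0 interactions called without a block and 3 negative with the number block (FAS, TNFSF10 and CASP1). CASP1, the inflammasome caspase, had means of 13.5 and 164 CPM in HT1376 CT and 1.47 and 5.50 CPM in HT1376 FOXP3 KO, with an interaction of -1.76 (SE 0.38, adjusted p = 0.163, with the number block 0.0029).

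TNFSF10, the death ligand TRAIL, shows what the block takes into account. It was at 3.39, 20.1 and 2.84 CPM and 48.7, 130.4 and 43.9 CPM in HT1376 CT, and at 118, 351 and 78.1 CPM and 243, 598 and 179 CPM in HT1376 FOXP3 KO. Library number 12 was the highest in each of the 4 groups. The interaction was -2.24 (SE 0.99, adjusted p = 0.767) without a block and -2.39 (adjusted p = 4.25e-08) with the number block.

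Of 9 TRIM ligases, 8 rose in HT1376 CT and 6 in HT1376 FOXP3 KO, and of 12 complement genes 7 and 5, each list with 1 called interaction (TRIM22 and SERPING1). With the number block TRIM5 (-0.76, adjusted p = 0.514, with the number block 0.0118) and TRIM21 (-0.74, adjusted p = 0.273, with the number block 0.00748) made 3 negative calls among TRIM ligases. Among 17 adhesion molecules and mucins, 5 rose and 1 fell in HT1376 CT, 2 rose in HT1376 FOXP3 KO, and ICAM1 was called, joined by MUC1 with the number block. CEACAM1, an adhesion molecule that can inhibit T cells, was at 225, 291 and 416 CPM and 404, 511 and 648 CPM in HT1376 CT and at 0.645, 1.97 and 3.69 CPM and 4.56, 2.99 and 10.1 CPM in HT1376 FOXP3 KO. The lines were far apart in both states, and the interaction was 0.87 (SE 0.62, adjusted p = 0.906, with the number block 0.189). Among 8 tryptophan and kynurenine genes 3 and 2 rose, and WARS was called. Of 11 NF-κB genes, 2 rose in HT1376 CT and 0 in HT1376 FOXP3 KO, and of 5 neutrophil chemokines 1 and 0, with 0 interactions called. With the number block NFKBIZ, a regulator of NF-κB in the nucleus, was called (-0.76, adjusted p = 0.419, with the number block 0.0346). Of 14 interleukins and cytokines 4 and 3 rose, also with 0 interactions called and 1 with the number block, IL32 (-1.29, adjusted p = 0.818, with the number block 0.00428). Beside the counts of these lists, 2.84% of all genes tested rose in HT1376 CT, 0.964% rose in HT1376 FOXP3 KO, and 0.683% were negative with the number block.

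The lists of mesenchymal, epithelial and cell cycle genes had median interactions above 0, while those of neutrophil chemokines (-1.57), complement (-0.64) and adhesion molecules and mucins (-0.43) were negative. Of 18 mesenchymal genes tested, 2 rose and 3 fell in HT1376 CT and 0 were called in HT1376 FOXP3 KO. Without a block 0 of their interactions were called. With the number block 3 were positive, and with the block within line and bias-adjusted deviance 7. Over the 13 above the floor the median log2 change was -0.98 in HT1376 CT and -0.06 in HT1376 FOXP3 KO, and the median interaction was 1.16. ZEB1, a repressor of epithelial genes, was at the floor in untreated HT1376 FOXP3 KO, with means of 0.795 and 3.73 CPM in HT1376 CT and 0.101 and 0.284 CPM in HT1376 FOXP3 KO. Of 24 epithelial and urothelial markers tested, 2 fell in HT1376 CT and 0 were called in HT1376 FOXP3 KO (median interaction 0.18). With the block within line and bias-adjusted deviance 5 of their interactions were positive and 1 negative. Of 24 cell cycle genes 1 fell in HT1376 CT and 0 were called in HT1376 FOXP3 KO (median interaction 0.16). Without a block 0 of their interactions were called, and 1, PLK1, was positive with the number block (0.86, adjusted p = 0.885, with the number block 0.0139). With the block within line and bias-adjusted deviance 3 were positive. Of all genes tested, 1.49% fell in HT1376 CT, and 0.525% and 1.65% were positive under these 2 blocks. In bulk libraries fewer cells of a kind and less RNA per cell cannot be told apart.

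**Figure D5:**
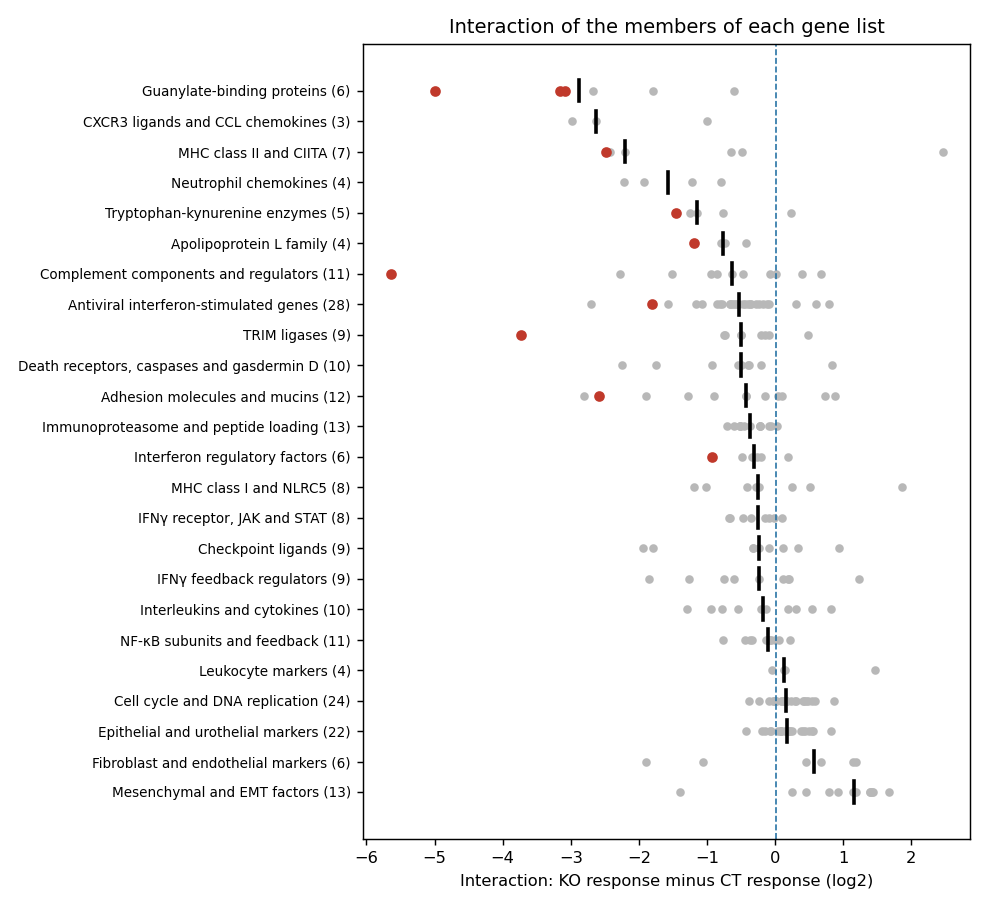
Interaction (HT1376 FOXP3 KO minus HT1376 CT, log2) of the members above the count floor in each list with 3 or more of them, with 1 point a gene, called genes in red, a black bar at the median of the list and a dashed line at 0.01, the median over all 19500 genes above the floor. The medians run from -2.87 for guanylate-binding proteins to 1.16 for mesenchymal factors.

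CD274, which encodes PD-L1, was at 95.5, 44.6 and 116 CPM in untreated HT1376 CT and 148, 147 and 219 CPM with IFNγ, and at 15.5, 15.9 and 24.3 CPM and 32.2, 28.2 and 44.3 CPM in HT1376 FOXP3 KO. All libraries of the edited line were below all control libraries, and within each line the treated libraries were above the untreated ones. The log2 changes of 1.0 (adjusted p = 0.0619) and 0.92 (adjusted p = 0.385) did not pass the test, and the interaction was -0.09 with a 95% interval from -0.95 to 0.78. The CPM increments were 86.0 in HT1376 CT and 16.4 in HT1376 FOXP3 KO. For CD274 the level differed between lines, at a log2 difference of -2.20 untreated and -2.29 with IFNγ, and a difference in the fold response was not detectable at this precision. PDCD1LG2, which encodes PD-L2, had CPM increments of 72.1 and 9.38 with a 95% interval of the interaction from -1.07 to 0.44. MUC1, a membrane mucin, was at 55.6, 127 and 94.5 CPM and 248, 413 and 354 CPM in HT1376 CT and at 15.9, 32.4 and 17.4 CPM and 30.5, 58.8 and 39.1 CPM in HT1376 FOXP3 KO, with number 12 the highest in each group. Its log2 change was 1.88 in HT1376 CT and 0.97, with no call, in HT1376 FOXP3 KO. The interaction was -0.90 (SE 0.44, adjusted p = 0.823) without a block and -0.94 (adjusted p = 0.000882) with the number block. Of the 11 checkpoint ligands tested, 3 rose in HT1376 CT and 2 in HT1376 FOXP3 KO, and 0 interactions were called. With the number block 1 was positive, VSIR, which encodes VISTA (0.94, adjusted p = 0.683, with the number block 0.0419). Over all genes tested 2.84% rose in HT1376 CT, 0.964% rose in HT1376 FOXP3 KO, and 0.525% were positive with the number block.

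A further 5 genes had a called interaction without being responders. HSP90B1, the chaperone GRP94 of the endoplasmic reticulum, was at 1013, 909 and 984 CPM in untreated HT1376 CT and 2381, 2256 and 2309 CPM with IFNγ, and at 875, 859 and 1071 CPM and 1023, 1002 and 1049 CPM in HT1376 FOXP3 KO. Treated HT1376 CT stood apart from the other 3 groups, which overlapped. HSP90B1 rose by 1.26 in HT1376 CT, its change of 0.13 in HT1376 FOXP3 KO was not called, and the interaction was -1.12 (SE 0.14, adjusted p = 0.00175), past the test without each library in turn. STEAP4, a metalloreductase, was at 91.9, 97.8 and 80.4 CPM and 168, 248 and 153 CPM in HT1376 CT, and at 67.5, 65.3 and 99.6 CPM and 48.2, 52.4 and 61.9 CPM in HT1376 FOXP3 KO. It rose in HT1376 CT, and in HT1376 FOXP3 KO every treated library was below every untreated one with no call (-0.52, adjusted p = 0.634). The interaction was -1.58 (SE 0.27, adjusted p = 0.0287), which was lost without untreated HT1376 CT number 11 or 13, untreated HT1376 FOXP3 KO number 13 or treated HT1376 FOXP3 KO number 11 or 12 (adjusted p of up to 0.111), and with filterByExpr (0.0506).

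TRAFD1, a negative regulator of innate signalling (interaction -0.94, adjusted p = 0.017), and XRN1, a cytoplasmic exonuclease of RNA decay (interaction -0.84, adjusted p = 0.0239), rose by 1.45 and 1.19 in HT1376 CT. Each kept its call in 1 of the 12 fits that left out a library, with an adjusted p of up to 0.129 for both. The clone-named gene AL359924.1 was the gene called in opposite directions, higher in HT1376 CT (adjusted p = 0.0288) and lower in HT1376 FOXP3 KO (adjusted p = 0.0383), at 45, 56 and 172 counts and 90, 49 and 175 counts in HT1376 CT and 7, 1 and 5 counts and 0, 0 and 0 counts in HT1376 FOXP3 KO. With treated HT1376 FOXP3 KO at 0, no fold is given.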

How the data were processed

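Reads of 150 bp, paired end, from ribosomal RNA-depleted libraries were aligned by the authors with STAR 2.7.11a to GRCh38, after Kraken had been used against Mycoplasma sequence, and counted with htseq-count. The authors deposited raw counts, 1 column per library. Strand setting and treatment of reads that fit several genes are not given in the sources used here. Of the 60666 genes, 2701 have an identifier and no symbol, and they stayed in the tests.

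From these counts, all 12 libraries were fitted as 4 group means with glmQLFit and glmQLFTest of edgeR 4.0.16 under R 4.3.3 (TMM normalization, package default deviance, a minimum of 10 counts summed over the libraries), and p-values were adjusted by Benjamini-Hochberg over the 27806 genes. Changes are unshrunk log2 coefficients, intervals are 95% intervals from the same fit, and CPM are normalized by TMM. The floor was 3 counts per library. The tests were two-sided. Intervals and bounds against the floor cover these libraries and their counting error only. The scripts were tested on simulated data.

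Deviations of libraries from the mean of their group were compared across genes. Pairs of a line that share a number gave r of 0.139 to 0.266 over all genes and 0.434 to 0.683 over 13116 genes with a mean log2 CPM over 1. Pairs that share a number across lines gave 0.0408 to 0.136 and 0.179 to 0.436, and different numbers gave -0.190 to 0.0703 and -0.536 to 0.236. By these values the number pairs libraries inside a line, from the data and not from the labels, and the number block is reported beside each named gene or list whose interaction calls it changed.

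The genes, lists and members were chosen with earlier results of these data known. The genes named are the study's genes of interest, the 10 lowest p in each direction of the interaction, the 5 with the largest interaction in each direction under the block within line, the 5 kept responders with the highest and the 5 with the lowest mean response, genes called in opposite directions and called list members. The rule also allowed 2 to 4 members per list with the highest mean CPM, of which only some are given. Other called genes and the list members CASP1, FAS, HLA-B, HLA-C, HLA-DMA, HLA-DMB, HLA-DQA1, HLA-E, IL32, JAK1, MX2, NFKBIZ, PARP14, PLK1, PSMB8, PSMB10, RSAD2, STAT2, TNFSF10, TRIM5, TRIM21 and VSIR were named after their values were seen. Alternatives were RLE size factors, other filters, DESeq2 1.42.0, voom of limma 3.58.1, 3 blocks, the bias-adjusted deviance, no size limit for responders, and leaving out each library. For the response of each line they were chosen after seeing the data. Promoters come from RefSeq (GRCh38.p14).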

Additional observations from a re-analysis of the deposited data

Results flagged for a closer look

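The interaction test found the IFNγ response of HT1376 FOXP3 KO and HT1376 CT to differ in 31 genes, by edgeR with adjustment over all genes tested. The values are the interaction on the log2 scale. Among raised genes with a higher untreated level in HT1376 FOXP3 KO it was -5.64 for SERPING1, -4.99 for GBP2, -3.74 for TRIM22, -3.73 for FRMD3, -3.41 for PLSCR4, -3.15 for GBP5, -3.08 for GBP1, -2.89 for VASH2, -2.81 for EIF4E3, -2.64 for SLFN5, -1.81 for IFITM1, -1.61 for SP110, -1.42 for SOD2 and -1.19 for APOL1. Among raised genes with no higher untreated level there it was -3.25 for CMPK2, -2.63 for CTSS, -2.59 for ICAM1, -2.48 for CD74, -2.15 for RNF213, -2.07 for MMP25-AS1, -1.72 for LAP3, -1.46 for WARS, -1.43 for AIM2, -1.11 for IFI16 and -0.93 for IRF1. It was 2.33 for the lowered gene FREM2. Among genes that were not responders it was -1.58 for STEAP4, -1.12 for HSP90B1, -0.94 for TRAFD1 and -0.84 for XRN1. AL359924.1 passed with an adjusted p of 0.0406 and has no measured fold, since treated HT1376 FOXP3 KO held 0 counts. No test for single outlying libraries was made within the groups of 3.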

How the results depend on the processing

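Between the alternative fits the counts moved more than the called genes did. Leaving out a library kept fewer of the 31 called genes. It kept 15 without untreated HT1376 CT number 13 or treated HT1376 FOXP3 KO number 11, and at most 26, without treated HT1376 CT number 11. All 31 called genes kept their sign under each alternative and without each library, and of the 30 above the floor 21 were called in all 9 alternatives, 12 of them also without each of the 12 libraries. Of the 31, 30 stayed called with RLE size factors, 22 with filterByExpr, 26 with voom and 25 with the bias-adjusted deviance alone, and 44 to 51 of the 51 kept genes stayed kept. Positive interaction calls, 1 as reported, numbered 3 with RLE, 3 with filterByExpr, 143 with a total of at least 1 count, 50 with DESeq2 and 6 with voom, and negative ones, 30 as reported, 151 with a total of at least 1 count and 110 with DESeq2. Smaller responses numbered 106 and 69 under those same settings, and larger ones 5, 2 and, with voom, 1. Pairing was taken into account by 3 blocks. With the block by number, the block within line, and the latter with bias-adjusted deviance, positive calls were 146, 748 and 458, negative 190, 572 and 409, smaller 114, 198 and 152, larger 3, 14 and 6, and kept 86, 105 and 95, while the block within line gave 797 responders. Genes raised in HT1376 CT were 1441, 2050 and 2214, lowered 1553, 2712 and 2556, raised in HT1376 FOXP3 KO 469, 781 and 702, and lowered 48, 351 and 260. With a total of at least 1 count 914 were lowered in HT1376 CT, 419 raised and 38 lowered in HT1376 FOXP3 KO. DESeq2 gave 721 lowered in HT1376 CT and 14 in HT1376 FOXP3 KO, and voom 12 there. Without a size limit 1164 responders, 475 of them kept, were counted. The causes were not tested. Leaving out a library gave 1 to 6 positive and 14 to 27 negative calls, 446 to 507 responders, 14 to 28 smaller, 0 to 1 larger and 47 to 69 kept. It gave 529 to 784 genes raised and 246 to 674 lowered in HT1376 CT, and 223 to 275 raised and 0 to 5 lowered in HT1376 FOXP3 KO. Smaller responses were 14 without untreated HT1376 CT number 13 or HT1376 FOXP3 KO number 11 of either treatment, 15 without treated HT1376 CT number 13, and 16 without untreated HT1376 CT number 11 or treated HT1376 FOXP3 KO number 13. Negative calls were 14 without untreated HT1376 CT number 13 and 19 or fewer without untreated number 11 of either line (16 and 15), untreated HT1376 FOXP3 KO number 13 (19), treated HT1376 CT numbers 12 (19) and 13 (15) and treated HT1376 FOXP3 KO numbers 11 (15) and 13 (17). The interactions of 7 uncalled genes changed sign, from -0.33 to 0.28 for CD274, -0.14 to 0.12 for IFNGR2, -0.23 to 0.18 for PSMB9, -0.37 to 0.55 for SECTM1, -0.31 to 0.30 for PLAUR (0.055 with voom), -0.20 to 0.13 for TRIM14 and -0.30 to 0.19 for IFIT2. The shallowest library held 4490684 counts, and interactions of genes at low CPM have wide intervals.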

Other observations

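The chaperones and folding enzymes of the endoplasmic reticulum were looked at after the call of HSP90B1 had been seen, so that the choice of the 16 genes is not independent of the values. In HT1376 CT, 10 of the 16 rose with IFNγ, where 2.84% of all genes tested rose, and in HT1376 FOXP3 KO 0 were called, where 0.964% of all genes rose. The median log2 change was 0.78 and 0.13, and the interaction was negative in 15 of the 16 with a median of -0.60. Negative calls were 1 without a block, HSP90B1, and 8 with the number block, where 0.108% and 0.683% of all genes were called negative. HSPA5, the chaperone BiP, was at 1003, 787 and 1121 CPM in untreated HT1376 CT and 2851, 2356 and 2745 CPM with IFNγ, and at 554, 461 and 644 CPM and 753, 746 and 784 CPM in HT1376 FOXP3 KO. The treated control libraries stood above all others, and the treated libraries of the edited line were above the untreated ones with no call (0.46, adjusted p = 0.286). The interaction was -0.99 (adjusted p = 0.0902, with the number block 7.55e-06). PDIA4, a disulfide isomerase, had an interaction of -0.94 (adjusted p = 0.168, with the number block 5.27e-05), and HERPUD1, a factor of endoplasmic reticulum degradation, of -1.06 (adjusted p = 0.179, with the number block 7.64e-05).

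A further 6 genes were picked after their values were seen because they fell in HT1376 CT and were not called in HT1376 FOXP3 KO, so that their direction follows from the choice and they stand for no list. TGFB2, a transforming growth factor, was at 57.2, 54.0 and 59.6 CPM and 29.3, 30.7 and 28.6 CPM in HT1376 CT, and at 36.2, 32.0 and 42.5 CPM and 42.0, 33.3 and 40.3 CPM in HT1376 FOXP3 KO. The control groups did not overlap and those of the edited line did. The interaction was 1.01 (adjusted p = 0.0617, with the number block 0.000475). The fibrillins FBN1 (1.03, adjusted p = 0.14, with the number block 3.97e-05) and FBN2 (1.79, 0.394 and 0.000191), the desmosomal cadherin DSG1 (1.87, 0.346 and 0.000134), the Wnt ligand WNT10A (1.92, 0.168 and 0.000121) and the calcium-binding protein S100A4 (1.39, 0.471 and 0.00134) had positive interactions that were called under the number block and not without it. In CPM the mean difference with IFNγ was -146 in HT1376 CT and -361 in HT1376 FOXP3 KO for FBN2, and -325 and -7.52 for DSG1, so that the scale changes which line had the larger decrease for FBN2.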
